A study of Mus musculus with 4 samples.

Results

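The genes described here are the 3 GADD45 genes and 7 genes of the p53 arrest response: GADD45A, GADD45B, GADD45G, PLK2, PLK3, MDM2, SESN1, SESN2, PPM1D and CCNG1. They were found by gene name among the non-control probes of the arrays, which gave 13 probes of 41000, and all 13 probes and 10 genes could be tested. A single probe was present for 7 of them, and a pair each for GADD45B, MDM2 and SESN1. RNA came from the established lung carcinoma line H460, of human origin, grown for 4 h with 250 µM farnesol (FOH, an isoprenoid alcohol) or with the vehicle DMSO. There were 2 experiments, replicate 1 and replicate 2, each comparing a farnesol RNA with its own vehicle RNA on 2 Cy3/Cy5 arrays with the dyes exchanged. The study's title concerns cell death and endoplasmic reticulum stress under farnesol, and the comparison asks which transcripts differ after the exposure. All cells were of 1 line, and 1 dose and 1 time were sampled.

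p53 is a transcription factor that is stabilised by DNA damage and other stresses and switches on genes of cell cycle arrest, repair, death and its own feedback. The GADD45 proteins are small stress-induced proteins without enzyme activity of their own. They bind the kinase MAP3K4, which feeds the p38 and JNK pathways, as well as the CDK1 and cyclin B1 complex and the replication clamp PCNA. GADD45A is a classical p53 target, but it is also switched on by ATF4 and other stress factors, and GADD45B is known as a target of NF-kappaB and TGF-beta signalling. PLK2 and PLK3 are stress-responsive polo-like kinases, the sestrins restrain mTORC1 and oxidative stress, and MDM2, PPM1D and CCNG1 are p53 targets that act back on p53.

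The cell line was checked by markers. All 5 epithelial markers (KRT8, KRT18, KRT19, EPCAM and CDH1) were well above background on every array in both channels, with mean normalised intensities of 152 to 18740 in farnesol cells and 185 to 22570 in vehicle cells. Of 9 markers of leukocytes, fibroblasts and endothelium, 8 were tested, and their mean intensities ran from 73.1 to 506 in farnesol cells and from 71.0 to 455 in vehicle cells. CD3D was not tested, and 7 of the 8 were also called well above background on every array, so that this call by itself did not separate the lineages. By intensity, KRT8, KRT18 and KRT19 lay above the range of those 8 markers. EPCAM (238 in farnesol cells, 297 in vehicle cells) and CDH1 (152 and 185) lay within it. The epithelial markers had log2 ratios of -0.65 to -0.20 and the others -0.01 to 0.31, and their part in the results was not tested. Dye-swapped arrays correlated at r = 0.943 and 0.942 across the tested features, against 0.633 to 0.684 for arrays of different replicates. Between 82.4% and 92.9% of probes in a channel were well above background.

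By size, 3 of the 10 genes, GADD45B, GADD45A and PLK3, had a farnesol over vehicle ratio of 2-fold or more in both experiments. None was 2-fold lower. GADD45B is counted by its brighter probe, and its other probe gave 1.86-fold in replicate 1. Over all 28598 features tested, 0.654% were 2-fold or more higher in both experiments and 0.238% were lower. By limma's test none of the 10 passed the adjusted p threshold of 0.05, where 0.0105% of all features, 3 in number, passed as higher and 0% as lower. At an unadjusted p under 0.05 there were 4 genes, GADD45B, GADD45A, PLK3 and SESN2, all higher, beside 3.71% of all features that were higher and 10.8% that were lower. In both replicates 5 genes were higher (35.4% of all features), 2 were lower in both (30.1%) and 3 went opposite ways (34.5%). The median log2 ratio of the 10 genes was 0.40, against 0.01 for all features. With 2 replicates an exact two-sided sign-flip test cannot go below p = 0.5, so limma's fit across all features carries the tests, with 1 residual degree of freedom per gene.

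**Figure D1:**
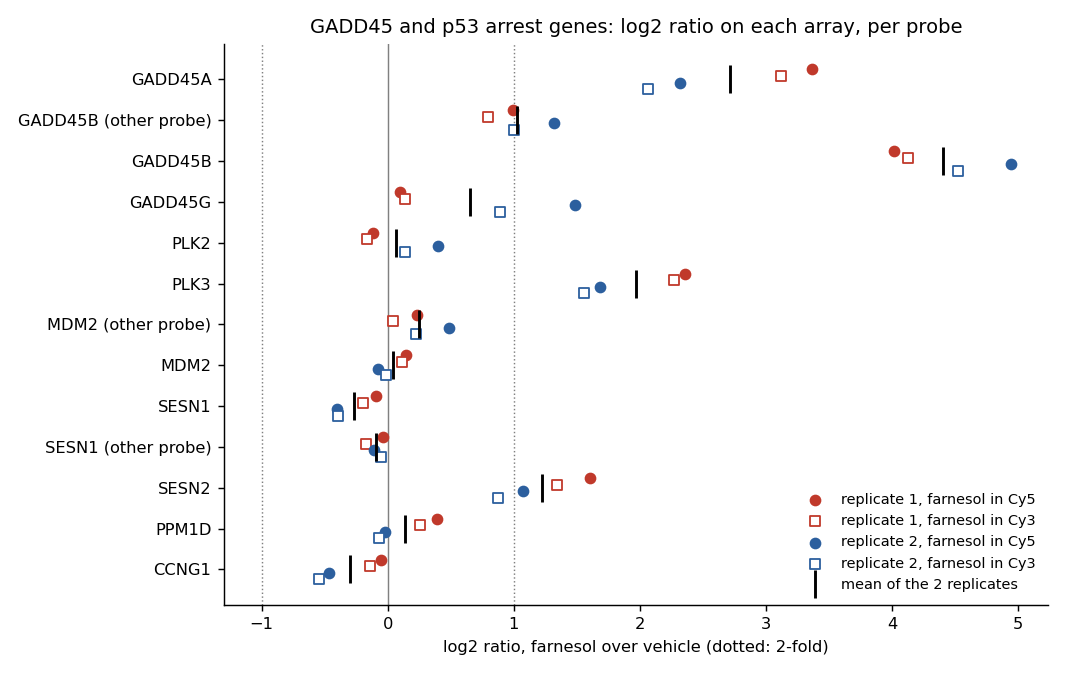
Log2 ratio of farnesol over vehicle (x axis) on each of the 4 arrays for the 13 probes of the 10 genes (rows), with the mean of both replicates marked. All points of GADD45A, PLK3, SESN2 and both GADD45B probes lie above 0, whereas PLK2, PPM1D and the brighter MDM2 probe have points on both sides.

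GADD45B had the largest ratio of the set. Its brighter probe, A_24_P239606, had normalised intensities (arbitrary units, over the 4 arrays in the order replicate 1 with farnesol in Cy5 and in Cy3, then replicate 2 likewise) of 2030, 1861, 3533 and 3071 in farnesol cells, against 126, 107, 115 and 134 in vehicle cells. The groups did not overlap, and the lowest farnesol value was far above the highest vehicle value. The vehicle values were well above background on 4 of 4 arrays but dim, near those of the brighter SESN1 probe (vehicle mean 109). The size of the ratio therefore depends on a dim denominator. The mean was 2619 ± 955 in farnesol cells and 120 ± 5.78 in vehicle cells (SD, n = 2), so that the spread lay almost wholly on the farnesol side. The log2 ratio was 4.40 ± 0.47 (SD, n = 2), or 21.1-fold, with a 95% interval of 3.72 to 5.08. Its limma p was 0.000333 and its adjusted p 0.191, and it ranked 18 by absolute ratio among all features. A pooled RNA measurement cannot tell a change in RNA per cell from a change in the share of cells that make it.

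The other GADD45B probe, A_23_P142506, carries the same transcript accession and gave a much smaller ratio. Its intensities were 678, 618, 884 and 861 in farnesol cells, against 340, 356, 354 and 429 in vehicle cells, again without overlap. Farnesol over vehicle gave a log2 ratio of 1.03 ± 0.19 (SD, n = 2), or 2.04-fold, with 0.90 in replicate 1 and 1.16 in replicate 2 and an adjusted p of 0.183 over all tested probes by limma. Both probes were higher with farnesol on 4 of 4 arrays, and both had the higher ratio in replicate 2. They differed by 3.17 log2 units in replicate 1 and 3.57 in replicate 2. Their mean log2 intensities were nearly equal, 9.11 and 9.04, so the probe that stands for the gene depended on the background step. With no offset, or with the scanner software's processed signals, A_23_P142506 was the brighter, and the gene's ratio was 1.20 or 1.17, whereas A_24_P239606 then gave 5.12 or 5.15. The mean of both probes was 2.71.

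GADD45A, whose protein binds the CDK1 and cyclin B1 complex and PCNA, had intensities of 4614, 4250, 2326 and 1890 in farnesol cells, against 449, 491, 467 and 452 in vehicle cells. Every farnesol value was above every vehicle value, and the vehicle values lay close together while the farnesol values were higher in replicate 1 than in replicate 2. This gave a log2 ratio of 2.71 ± 0.74 (SD, n = 2), or 6.56-fold, with a 95% interval of 1.66 to 3.76. By limma the p was 0.00429 and the adjusted p 0.193. The replicates gave 9.44-fold and 4.56-fold, and within each the dyes differed by 0.25 log2 units. GADD45A and GADD45B thus took opposite orders in the experiments: the first was higher in replicate 1 by 1.05 log2 units and the other was lower there by 0.66.

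GADD45G, the third member of the family, had intensities of 160.5, 156, 231 and 304 in farnesol cells, against 150, 142, 82.4 and 164 in vehicle cells. The groups overlapped, and the gap between conditions lay in replicate 2. There the ratio was 2.28-fold, against 1.09-fold in replicate 1. The resulting log2 ratio was 0.65 ± 0.76 (SD, n = 2), with an interval of -0.42 to 1.72 and an adjusted p of 0.501 by limma. The dyes differed by 0.59 log2 units in replicate 2, the largest dye gap among the 13 probes. All 4 arrays gave a ratio above 1, but the mean was smaller than the spread of the replicates. It was 1.07 with the scanner software's processed signals, which add no offset to dim probes.

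**Figure D2:**
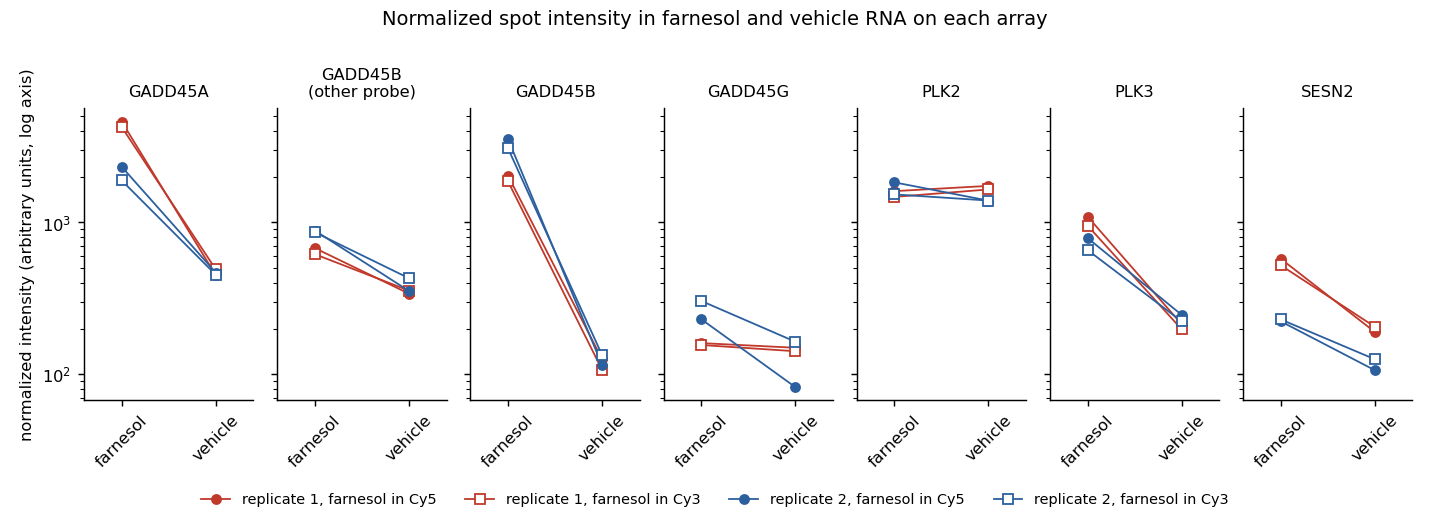
Normalised intensity (arbitrary units, log scale) for the GADD45 genes, PLK2, PLK3 and SESN2, with farnesol left of vehicle and a line for each of the 4 arrays. For both GADD45B probes, GADD45A, PLK3 and SESN2 all farnesol points lie above all vehicle points, whereas those of GADD45G and PLK2 overlap.

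Of the polo-like kinases, PLK3 had the higher ratio. PLK3 is an immediate early kinase that phosphorylates p53 and takes part in stress checkpoints. Its intensities were 1093, 953, 790 and 658 in farnesol cells, against 214, 198, 246 and 223 in vehicle cells, with no overlap. The log2 ratio was 1.97 ± 0.49 (SD, n = 2), or 3.91-fold, with an interval of 1.26 to 2.67, a limma p of 0.00348 and an adjusted p of 0.191. The replicates gave 4.96-fold and 3.07-fold.

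PLK2, a p53 target that acts in centriole duplication, had intensities of 1608, 1474, 1837 and 1530 in farnesol cells, against 1741, 1649, 1392 and 1394 in vehicle cells. Replicate 1 was lower with farnesol and replicate 2 was higher. Farnesol over vehicle gave a log2 ratio of 0.06 ± 0.29 (SD, n = 2), with an interval of -0.37 to 0.50 and an adjusted p of 0.861 by limma, and its sign turned to -0.16 with median centring in place of loess. Among relatives outside the set, PLK1, the mitotic polo-like kinase, had a log2 ratio of -0.998 ± 0.62 (SD, n = 2; limma adjusted p 0.307) on its brightest probe and -0.31 on another. PLK4, the centriole kinase, had 0.03 ± 0.23 on its brighter probe and -0.002 on the other.

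The sestrins split in the same way. SESN2, a leucine-sensing inhibitor of mTORC1 signalling that is switched on by p53 and by ATF4, had intensities of 577, 522, 223 and 229.9 in farnesol cells, against 190.0, 206, 106 and 126 in vehicle cells. No farnesol value fell within the vehicle range, but the replicate 2 farnesol values came close to the replicate 1 vehicle values. Both conditions were dimmer in replicate 2. This gave a log2 ratio of 1.22 ± 0.36 (SD, n = 2), or 2.33-fold, with an interval of 0.70 to 1.75, a limma p of 0.00576 and an adjusted p of 0.197. Replicate 1 gave 2.78-fold and replicate 2 gave 1.96-fold, which left SESN2 just short of the count of genes at least 2-fold higher in both replicates.

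SESN1, the sestrin named first as a p53 target, was dim. Its brighter probe had intensities of 103, 91.4, 85.8 and 81.3 in farnesol cells, against 109.7, 105, 113 and 107 in vehicle cells. These ranges did not overlap, and farnesol was lower on 4 of 4 arrays. The resulting log2 ratio was -0.27 ± 0.18 (SD, n = 2), with an interval of -0.58 to 0.04 and an adjusted p of 0.388 by limma. The other SESN1 probe gave -0.09 ± 0.02 and was well above background in only 2 of 4 farnesol channels, and its sign turned to 0.01 with median centring. The ratios of both probes were further from 0 without an offset. The brighter probe gave -0.60 with no offset and -0.68 with processed signals, with limma adjusted p-values of 0.302 and 0.290, and unadjusted p-values of 0.0370 and 0.0356. The dimmer probe gave -0.34 and -0.52 in those settings. The dimmer probe was the only one of the 13 probes that was not well above background in every channel. SESN3, the remaining sestrin, had a log2 ratio of -0.06 ± 0.05 (SD, n = 2).

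The genes that act back on p53 had ratios well under 2-fold in the mean. MDM2, the ubiquitin ligase that marks p53 for degradation, had intensities of 174, 177, 181.5 and 160.2 in farnesol cells on its brighter probe, against 157, 164, 191 and 162 in vehicle cells. The conditions overlapped throughout. The log2 ratio was 0.04 ± 0.12 (SD, n = 2), with an interval of -0.20 to 0.29 and an adjusted p of 0.840 by limma, and with median centring it was -0.00. The other MDM2 probe, filed under another transcript record, gave 0.25 ± 0.16, with a limma adjusted p of 0.373 over all tested probes. It was higher with farnesol on 4 of 4 arrays. This probe was dim, with mean intensities of 115 in farnesol cells and 97.7 in vehicle cells. It gave 0.54 with no offset and 0.60 with processed signals, with limma adjusted p-values of 0.292 and 0.287 and an unadjusted p of 0.0381 and 0.0377. MDM4, the relative of MDM2 that blocks p53 without degrading it, had 0.84 ± 0.46 on its brightest probe (limma adjusted p 0.282) and 0.34 and 0.18 on the other probes.

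PPM1D, the phosphatase that removes stress phosphates from p53 and p38, had intensities of 368, 337, 268.5 and 268.7 in farnesol cells, against 280.0, 282, 272 and 282 in vehicle cells. Replicate 1 was higher with farnesol on both arrays, while replicate 2 was marginally lower. Its log2 ratio was 0.14 ± 0.26 (SD, n = 2), with an interval of -0.27 to 0.55 and an adjusted p of 0.669 by limma. Its relatives PPM1A, PPM1B and PPM1G had log2 ratios of -0.16 ± 0.18, 0.33 ± 0.47 and -0.38 ± 0.29 (SD, n = 2). These are by the brightest probe, and other probes gave -0.02 and -0.12 for PPM1A and 0.03 for PPM1B.

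CCNG1, a cyclin that brings the phosphatase PP2A to MDM2, had intensities of 454, 379, 289 and 278 in farnesol cells, against 472, 417, 398 and 405 in vehicle cells. Farnesol was lower on 4 of 4 arrays, with the wider gap in replicate 2. Farnesol over vehicle gave a log2 ratio of -0.30 ± 0.29 (SD, n = 2), with an interval of -0.74 to 0.14 and an adjusted p of 0.476 by limma. CCNG2, the other cyclin G, had 0.01 ± 0.06 on its brightest probe and 0.05 and 0.03 on others.

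**Figure D3:**
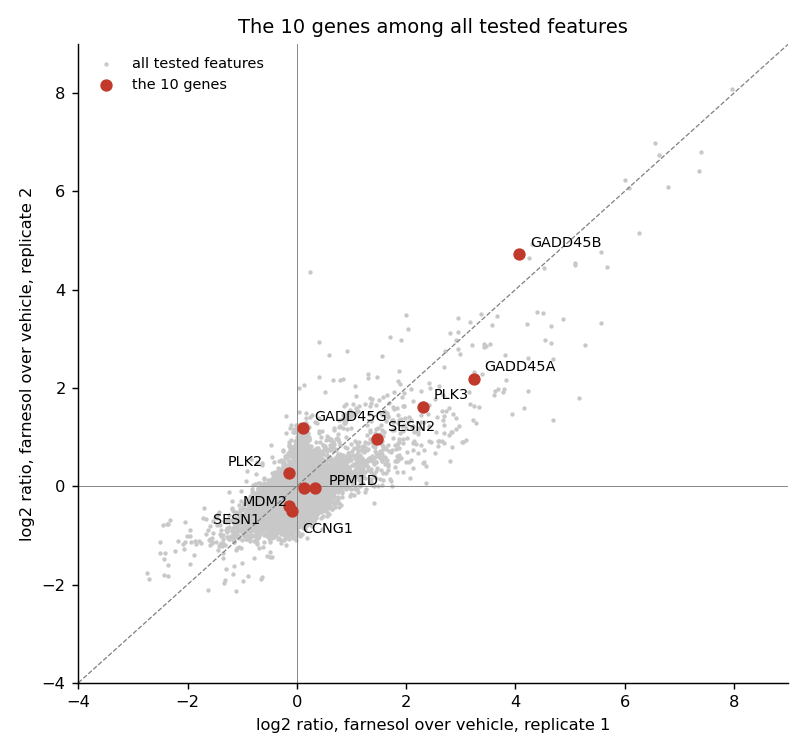
Log2 ratio in replicate 1 (x axis) against replicate 2 (y axis) for the 10 genes and all tested features. GADD45B lies above the diagonal, GADD45A, PLK3 and SESN2 below it, and GADD45G has a high value in replicate 2 only.

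The genes most like the 3 strongest ones were found by the distance between their log2 ratios over the 4 arrays, and 2 dye-swapped pairs give such a match little resolving power. Nearest to GADD45A were CCNL1, a cyclin of RNA processing, with a distance of 0.22 and a log2 ratio of 2.79, MCL1, an anti-apoptotic BCL2 relative, with 0.42 and 2.53, and RASD1, a small G protein, with 0.43 and 2.84. Nearest to GADD45B, on its brighter probe, was the chemokine CXCL1 with a distance of 0.34 and a log2 ratio of 4.45. The immediate early gene IER2 followed with 0.58 and 4.62, then SAT, the array's name for a polyamine acetyltransferase, with 0.78 and 4.48. PLK3 lay nearest to MGC5306 with a distance of 0.13 and a log2 ratio of 1.96, then RGS2, a regulator of G protein signalling, with 0.16 and 2.00, and PPP1R15A (GADD34), a phosphatase subunit of the stress response, with 0.37 and 1.94.

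Genes of the ATF4 and NF-kappaB pathways, which are known to induce GADD45A or GADD45B, were read beside them. ATF4, which is controlled largely by translation, had a log2 ratio of 0.15 ± 0.27 (SD, n = 2; limma adjusted p 0.656), with 0.22 on another probe. DDIT3 (CHOP), a target of ATF4, had 5.17 ± 0.57 (adjusted p 0.191). Of the NF-kappaB targets, NFKBIA had 4.01 ± 0.70 (adjusted p 0.191) and TNFAIP3 had 2.85 ± 1.31 (adjusted p 0.242), with 0.82 on its other probe. All 4 of these genes, and 7 of the 10 members of the set, had the higher ratio in replicate 1. Over all features, 13961 of 28598 did. The part of the replicate in these ratios was not tested.

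Other p53 targets were taken from a list of 20, of which 19 were tested and TRIAP1 was not matched by name. In both experiments 3 were at least 2-fold higher (0.654% of all features) and none was that much lower (0.238%). None passed the adjusted threshold. The median log2 ratio was -0.00 by the brightest probes and 0.03 by the mean of a gene's probes. At an unadjusted limma p under 0.05, 4 were higher (3.71% of all features) and 3 were lower (10.8%). GDF15, a stress-induced cytokine, had 2.99 ± 1.19 (SD, n = 2), PMAIP1 (NOXA), a pro-death BCL2 relative, had 2.22 ± 0.32, and the antiproliferative gene BTG2 had 1.94 ± 0.66, with limma adjusted p-values of 0.221, 0.191 and 0.207. CDKN1A, which encodes the p53-induced inhibitor p21, had 0.42 ± 0.10 on its brighter probe and 0.15 on the other (adjusted p 0.220 for the brighter). Probes of a gene could differ widely. BBC3 had 0.38 ± 0.25 on its brightest probe and 1.42 and 0.16 on others, and BAX had -0.19 ± 0.14, with 0.64 and -0.14 on others. Within this list of 19 tested genes 6 were higher in both replicates (35.4% of all features), 7 were lower in both (30.1%) and 6 went opposite ways (34.5%). These shares of direction, but not the share at least 2-fold higher, were near those of all features.

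Of the stress kinases in the lists, HIPK2 had a log2 ratio of -0.38 ± 0.15 (SD, n = 2), ATR had -0.31 ± 0.59 and CHEK1 had -0.21 ± 0.39, with limma adjusted p-values of 0.267, 0.655 and 0.645. ATR and CHEK1 were higher in replicate 1 and lower in replicate 2. HIPK2 was lower in both on its brighter probe, and its other probe had a log2 ratio of -0.04.

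The partners that GADD45 proteins bind or act through had ratios mostly below 0. Of 6 tested, 4 were lower in both replicates (30.1% of all features) and none reached 2-fold in both or the adjusted threshold. At an unadjusted p under 0.05, 3 of the 6 were lower (10.8% of all features). PCNA had a log2 ratio of -0.98 ± 0.18 (SD, n = 2), MAPK14 (p38 alpha) had -0.71 ± 0.29 on its brighter probe and -0.09 on the other, and CCNB1 had -0.68 ± 0.06. Their limma adjusted p-values were 0.191, 0.236 and 0.191. The list's median was -0.53, and it lay between -0.72 and -0.39 under the alternative settings that used both replicates. Replicate 1 alone gave -0.30, with 4 genes lower and 2 higher, and replicate 2 alone gave -0.66. MAP3K4, the kinase bound by GADD45 proteins, had -0.05 ± 0.10.

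**Figure D4:**
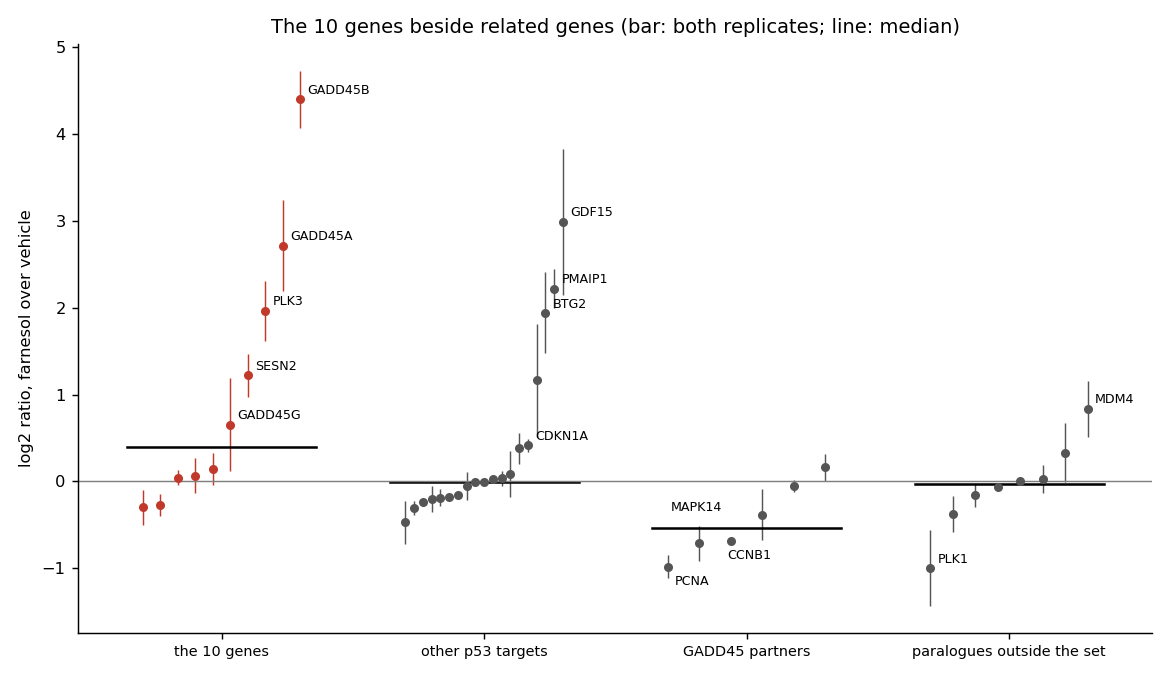
Log2 ratio (y axis) of the 10 genes and of 3 lists of related genes, each point a gene with a bar joining its replicates and a line at the list's median. The 10 genes range from -0.30 to 4.40, and the GADD45 partners lie mostly below 0.

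The authors' deposited table follows replicate 1 and holds probes with a p-value of at most 0.001. It lists 6 of the 13 probes, beside 7018 of all 41000 probes. In the authors' deposited table the ratio of farnesol over vehicle was 10.5 for GADD45A, 27.6 and 2.01 for the GADD45B probes, 6.15 for PLK3, 3.36 for SESN2 and 1.31 for PPM1D. The replicate 1 ratios computed here were 9.44 for GADD45A, 16.8 and 1.86 for GADD45B, 4.96 for PLK3, 2.78 for SESN2 and 1.25 for PPM1D, each smaller than in the authors' deposited table. An added offset shrinks ratios, most of all at dim probes, but its part in these differences was not tested. The difference between the GADD45B probes is present in both sources. GADD45G, PLK2, MDM2, SESN1 and CCNG1 are not in that table.

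**Figure D5:**
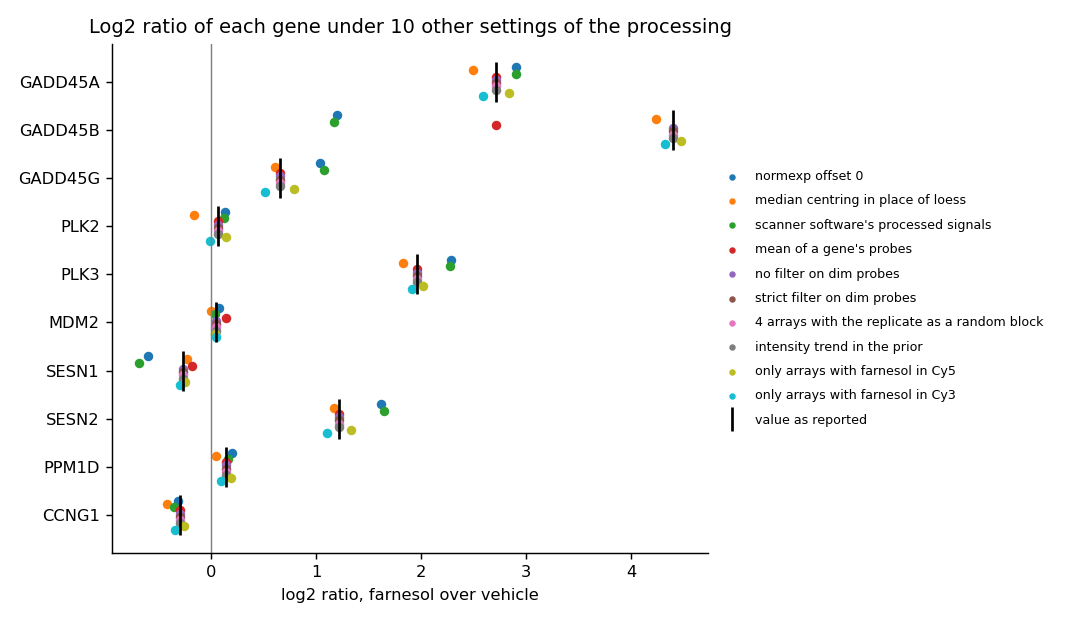
Log2 ratio (x axis) of each gene (rows) under 10 other settings of the processing, with the value as reported marked by a bar. Settings that change only the test or the filter on dim probes left the ratios as reported. GADD45B falls to about 1.2 in 2 settings where its other probe is the brighter and to 2.71 as a mean of probes, while GADD45A, PLK3 and SESN2 stay above 1 in all 10.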

How the data were processed

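RNA of farnesol and vehicle cells was compared on 4 arrays, 2 dye-swapped arrays for each of 2 replicates. The organism label is mouse, but the labels' protocols describe human cells and the array's gene names are human. Per the file headers, spots were read with Agilent Feature Extraction 8.1.1.1. The deposited intensity values are mean spot and median local background brightness, uncorrected, and the processed intensity and log10 ratio are background-subtracted and dye-normalized by that software, per the file headers. A table in 2 identical copies holds the authors' linear ratio (farnesol divided by vehicle) and p-value for single probes. Its ratios followed those of the first experiment (r = 0.9999 across probes) with the dyes as labelled, which bears on the direction of all ratios.

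Intensities were corrected by normexp (offset 50) and loess (limma 3.58.1, R 4.3.3), control and outlying spots were left out, and signs were turned to farnesol over vehicle. Channel levels were scaled between arrays (Aquantile). Averages were taken over a probe's spots and then over each dye-swapped pair (n = 2). A probe was tested if, for farnesol or for vehicle, it was well above background on 1 or more arrays of both replicates, and a gene was represented by its brightest tested probe. limma's moderated test was two-sided, with Benjamini-Hochberg adjustment over 28598 features. Moderation added 1.81 degrees of freedom to the 1 residual. Scripts were tested on simulated data. Nothing states that the duplicate experiments used separate cultures, so p-values measure only the spread between these samples.

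Named were the 10 genes with all probes, list genes with 2-fold or larger ratios of 1 direction in both replicates, each list's 3 largest absolute ratios, CDKN1A, MDM4 and CCNB1, 3 nearest genes for each of the strongest, and DDIT3, ATF4, NFKBIA and TNFAIP3. The remaining relatives of the 10 genes, MAP3K4, BBC3 and BAX were named after their values were seen. A listed gene is not reported here. The genes and lists were chosen with earlier results of these data known. The mouse reference was not used, and no position or sequence is given.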

Additional observations from a re-analysis of the deposited data

How the results depend on the processing

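Besides leaving out a replicate, 10 alternatives were run. GADD45A, PLK3, SESN2, GADD45G and GADD45B kept a ratio above 0, and SESN1 and CCNG1 one below 0, in all 10. Not all 10 could move a ratio. The replicate as a random block and the intensity trend change only the test. The looser and stricter filters on dim probes also left these ratios as reported. The mean of a gene's probes cannot change a gene with a single probe. PLK2 reversed to -0.16 with median centring and -0.013 with farnesol in Cy3 only, MDM2 to -0.0022 and the dimmer SESN1 probe to 0.014 with median centring. The cause was not tested. Single replicates ran from -0.14 to 0.27 for PLK2, -0.044 to 0.13 for MDM2 and -0.044 to 0.33 for PPM1D. No adjusted p exists with 1 replicate left.

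The adjusted calls depended on the spread that was assumed and on how the ratios were computed. With the 4 arrays fitted and the replicate as a random block (consensus correlation 0.549), 4 of the 10 genes passed limma's adjusted threshold: GADD45A at 2.71 (adjusted p 0.00304), GADD45B at 4.40 (0.000397), PLK3 at 1.97 (0.00226) and SESN2 at 1.22 (0.00640). That fit takes technical repeats as samples and called 2893 features in all. With an intensity trend in the prior 1 of the 10 passed, GADD45B at 4.40 (adjusted p 0.0303), among 32 features, and with median centring 1 passed, GADD45B at 4.24 (adjusted p 0.0242), among 25. The count over all features, 3 as reported, was 65 with no offset, 60 with processed signals, 5 with farnesol in Cy5 only and 15 with farnesol in Cy3 only. Fitted over probes, GADD45B's probe A_24_P239606 passed with no offset (5.12, adjusted p 0.0119) and with processed signals (5.15, adjusted p 0.0143), as did SESN2 with no offset (1.62, adjusted p 0.0451).

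SESN2 joined the genes at least 2-fold higher in both replicates with no offset, with processed signals and with farnesol in Cy5 only, making 4. The share of all features that high was 0.986%, 1.025% and 0.735% in those settings, against 0.654% as reported. Features at least 2-fold higher and lower numbered 187 and 68 as reported, against 154 and 135 with median centring. The 2 replicates limit the precision, as does a dim signal for SESN1, the other MDM2 probe, GADD45G and, in vehicle cells, the brighter GADD45B probe.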
